A study of Mus musculus with 11 samples.

Results

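The FGF and MAPK feedback group held 40 genes, all of which had a row among the 23265 gene symbols used from the expression table. They were taken by name in 5 classes: 18 FGF ligands, 4 FGF receptors, 12 feedback inhibitors, 4 immediate early genes and 2 ETS effectors. All samples came from mouse ESCs of the E14Tg2A line, an established line, grown feeder-free on gelatin in serum and LIF. RNA-seq compared 2 libraries of cells infected with a control shRNA (shCtl) with 2 libraries of cells infected with an shRNA against Cbx6 (shCbx6); the infected cells were drug-selected pools and the labels do not say which Cbx6 hairpin was used. ChIP-seq gave 4 peak lists, which came from 2 replicates of an anti-HA ChIP against CBX6, from a CBX7 ChIP and from a Ring1b ChIP. The HA tag sat on the endogenous CBX6 protein of an engineered clonal line, and CBX7 and RING1B were pulled down with antibodies to the proteins themselves. The matching HA-NEO and IgG control ChIPs had no peak list and were not used here.

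FGF signaling is the main source of ERK activity in ESCs. The cells secrete FGF4, which binds FGF receptors with heparan sulfate and switches on the RAS, RAF, MEK and ERK kinases. ERK activity makes cells competent to leave the pluripotent state, and it also induces its own inhibitors: Sprouty and SPRED proteins act on the RAS and RAF steps, and dual-specificity phosphatases (DUSPs) remove the activating phosphates from MAP kinases. Egr1, Fos, Ier3 and Myc are early transcriptional targets, and the ETS factors Etv4 and Etv5 follow FGF activity in many embryonic tissues. CBX6 and CBX7 are chromobox proteins of Polycomb repressive complex 1, and RING1B is its ubiquitin ligase for histone H2A.

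Expression was given in FPKM, fragments scaled to transcript length and to the mapped fragments of the library, so that levels can be compared between genes per length. Cbx6 itself stood at 17.4 and 14.9 FPKM in shCtl and at 9.53 and 5.4 FPKM in shCbx6. The Cbx6 difference was -1.06 ± 0.26 (SE) on the log2(FPKM + 1) scale and did not pass limma's test over all genes (adjusted p = 0.247). Each library had between 11102 and 11310 genes at 1 FPKM or more, and a relative depth within 0.956 to 1.13 of the first shCtl library, estimated from the steps of the lowest values. Pluripotency markers were high in every library (Pou5f1 1359, 1452, 1120 and 1151 FPKM). Of the 9 markers, 5 were lower in shCbx6 at an unadjusted limma p under 0.05 (6.54% of all genes tested) and 0 at an adjusted p under 0.05. Klf4 went from 91.1 and 96.7 to 36.7 and 28.0 FPKM. Utf1 and Sox2 had positive differences: Utf1 went from 135.9 and 190.7 to 194.5 and 254.5 FPKM, and Sox2 from 132.9 and 151.8 to 159.9 and 140.5 FPKM. The summed level of 7 trophectoderm markers was 13.5 and 18.01 FPKM in the shCtl libraries, 35.0 FPKM in shCbx6 replicate 1 and 262 FPKM in shCbx6 replicate 2. Most of the last value came from Krt8 and Krt18, which stood at 119 and 122 FPKM in shCbx6 replicate 2, whereas Cdx2 and Elf5 reached at most 0.511 and 0.0533 FPKM. Tfap2c, which trophectoderm shares with other embryonic cells, had the lowest p of the list and was higher in both knockdown libraries, at 7.41 and 9.04 FPKM against 2.84 and 2.21 FPKM in shCtl (3.26-fold, limma adjusted p = 0.0895). Krt7 stood at 0.549 and 9.02 FPKM in shCbx6. Eomes did not differ: it was at 2.125 and 1.416 FPKM in shCtl and at 1.629 and 1.917 FPKM in shCbx6, with overlapping groups. Summed fibroblast markers lay between 1.67 and 5.31 FPKM and summed primitive endoderm markers between 1.84 and 2.73 FPKM. In such bulk samples, fewer cells of a type and less RNA per cell cannot be told apart. The labels do not say whether the 2 libraries of a group came from separate infections, so p-values measure only the spread between these libraries.

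Start-site sequence differed widely within the group. For 29 of the 40 genes, start sites were taken from the RefSeq promoter table (GRCm38.p6), 37 in all. Fgf1, Spry4 and Egr1 were left out beforehand, so 29 is not the number of genes with an entry. The 250 bases before each start were found at exactly 1 place in the NCBIM37 assembly that the peak lists use. These windows held a median of 18 CpG dinucleotides, against 6 over all 32841 promoters of the table, and ranged from 2 to 37. CpG-rich start sites are where Polycomb complexes usually sit in ESCs. Of these windows, 6 are given 5′ to 3′ in the direction of transcription, with each CpG in capitals: those of Fgf4 and Dusp6, which were high in control cells and on 1 peak list, those of Fgf9 and Fgfr3, which were low and on all 4, that of Fgfr2, the receptor whose level differed most between the groups, and that of Fgf7, the only gene without a peak.
Fgf4: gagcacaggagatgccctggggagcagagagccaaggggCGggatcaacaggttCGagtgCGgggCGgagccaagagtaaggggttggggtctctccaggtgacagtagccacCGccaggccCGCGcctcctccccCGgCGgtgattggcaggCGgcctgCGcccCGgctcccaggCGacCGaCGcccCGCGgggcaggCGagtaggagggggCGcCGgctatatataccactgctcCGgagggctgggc
Dusp6: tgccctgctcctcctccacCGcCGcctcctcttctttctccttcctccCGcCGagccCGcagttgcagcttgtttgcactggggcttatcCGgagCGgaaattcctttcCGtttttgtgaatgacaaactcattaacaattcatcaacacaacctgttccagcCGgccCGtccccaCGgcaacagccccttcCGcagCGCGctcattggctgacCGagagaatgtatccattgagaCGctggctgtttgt
Fgf9: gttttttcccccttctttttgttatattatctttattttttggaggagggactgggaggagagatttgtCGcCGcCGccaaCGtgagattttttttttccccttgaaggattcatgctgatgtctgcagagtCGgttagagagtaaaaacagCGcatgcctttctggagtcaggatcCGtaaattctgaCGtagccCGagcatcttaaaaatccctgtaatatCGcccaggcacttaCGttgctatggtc
Fgfr3: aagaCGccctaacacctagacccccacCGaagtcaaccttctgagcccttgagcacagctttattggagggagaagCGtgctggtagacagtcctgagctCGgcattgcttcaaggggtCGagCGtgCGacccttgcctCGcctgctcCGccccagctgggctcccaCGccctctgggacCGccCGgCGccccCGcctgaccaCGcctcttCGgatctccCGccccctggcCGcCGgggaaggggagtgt
Fgfr2: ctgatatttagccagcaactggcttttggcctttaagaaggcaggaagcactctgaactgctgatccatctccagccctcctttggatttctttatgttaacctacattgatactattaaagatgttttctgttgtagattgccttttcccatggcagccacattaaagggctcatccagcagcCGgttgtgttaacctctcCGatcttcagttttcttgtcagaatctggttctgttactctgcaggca
Fgf7: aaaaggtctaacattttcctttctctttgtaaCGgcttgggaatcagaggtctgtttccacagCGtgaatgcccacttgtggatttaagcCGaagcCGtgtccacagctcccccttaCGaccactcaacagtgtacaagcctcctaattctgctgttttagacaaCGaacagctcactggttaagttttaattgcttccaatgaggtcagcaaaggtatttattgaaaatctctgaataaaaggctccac
The Fgf4 window (plus strand, chr7:152047041-152047290) and the Dusp6 window (plus strand, chr10:98725615-98725864) end at the annotated first exon, hold 21 and 16 CpG, and lay wholly inside a peak of CBX6 replicate 1 and outside the other lists. The Fgf9 window (plus strand, chr14:58691273-58691522) falls in an intron of an isoform that starts upstream, holds 11 CpG and lay wholly inside peaks of all 4 lists. The Fgfr3 window (plus strand, chr5:34064123-34064372) holds 19 CpG and was also covered by all 4 lists. The Fgfr2 window (minus strand, chr7:137410323-137410572) holds only 2 CpG, fewer than at most start sites: 18.8% of all promoters had fewer. It lay wholly inside CBX6 replicate 1, CBX7 and RING1B peaks and had 84 bases in a CBX6 replicate 2 peak, each of which reached further into the gene than upstream. The Fgf7 window (plus strand, chr2:125860144-125860393) holds 6 CpG and no list had a peak there.

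Dusp5 is shown for a motif. Serum response factor binds the CArG box, and 1.47% of all promoter windows held at least 1 on either strand. The 37 windows of the group leave out Egr1, Fgf1, Spry4, Dusp4, Myc, Etv4, Fgfr1, Fgf8, Fgf15, Fgf17 and Fgf20, which were not searched. Among the windows searched the only match was at Dusp5 (plus strand, chr19:53603385-53603634). It has 2 CArG boxes side by side, here in capitals within the 214 bases before its annotated exon.
Dusp5: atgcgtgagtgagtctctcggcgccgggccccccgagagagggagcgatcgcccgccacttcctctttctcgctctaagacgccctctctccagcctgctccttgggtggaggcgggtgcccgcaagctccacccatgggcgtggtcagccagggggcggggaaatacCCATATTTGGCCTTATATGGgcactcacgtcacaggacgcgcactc
The ETS letters CCGGAAGT were in 0 of the 37 windows, against 2.88% of all promoters, and the CRE letters TGACGTCA were in 1, at Dusp1, against 1.55%. The E-box letters CACGTG, searched like the others on both strands, were at Dusp1, Dusp2 and Fgf21, against 6.02% of all promoters. These matches describe the letters of the windows only.

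The first question was where CBX6, CBX7 and RING1B sit among these genes. A peak was assigned to a gene when it overlapped the stretch from 2.5 kb before a transcription start to the transcript end. Of the 40 genes, 36 had a peak in the first CBX6 replicate, 25 in the second, 24 in the CBX7 list and 21 in the RING1B list. Over all 21921 genes with coordinates the shares were 56.7% for CBX6 replicate 1, 16.5% for CBX6 replicate 2, 17.8% for CBX7 and 16.0% for RING1B, against 90%, 62.5%, 60% and 52.5% of the group. Peaks were in all 4 lists at 17 genes (42.5%, against 11.4% of all genes), and 12 genes had a peak in CBX6 replicate 1 only (30%, against 38.1%). These shares carry no test, and the replicate 1 list held 21865 peaks where the replicate 2 list held 5103. Requiring a peak to be found in both CBX6 replicates left 22 of the 40 genes and 3068 of all 21921.

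**Figure D1:**
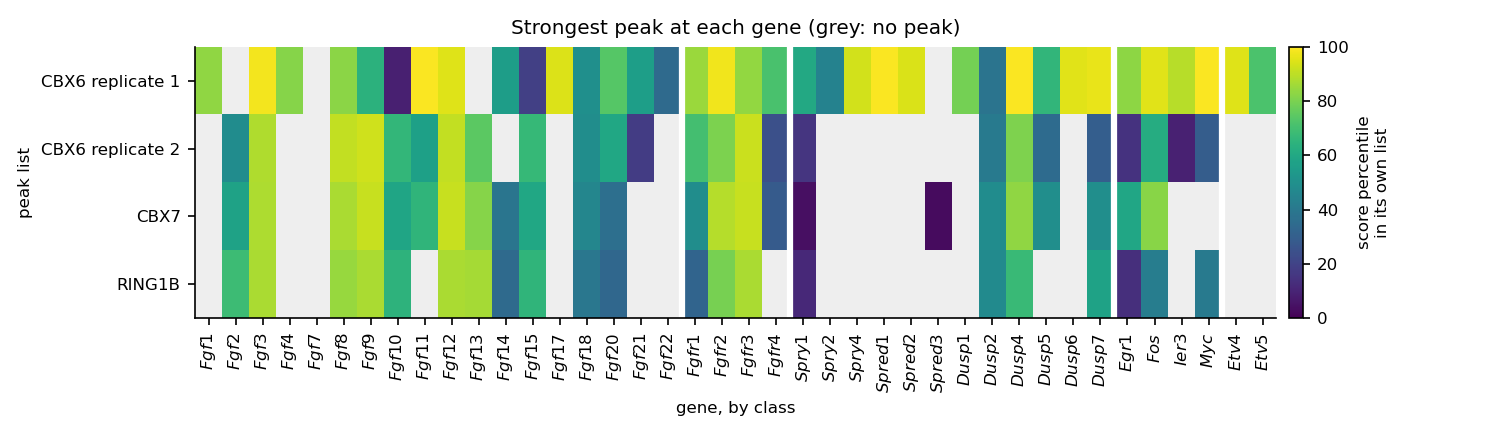
Strongest peak at each of the 40 genes (columns, by class) in each peak list (rows), coloured by the percentile of its MACS score among all peaks of the same list, with grey for no peak. CBX6 replicate 1 covers 36 genes, whereas the 3 other lists leave Fgf4, Fgf17, Etv4, Etv5 and most Sprouty and SPRED genes grey.

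The classes differed in which lists they were on. Of the 18 ligands, 15 had a peak in the first CBX6 replicate, 12 in the second, 12 in the CBX7 list and 11 in the RING1B list. All 4 receptors were on both CBX6 lists and the CBX7 list, and 3 were on the RING1B list, with Fgfr4 missing. Of the 12 feedback genes, 11 had a CBX6 replicate 1 peak, 5 a CBX6 replicate 2 peak, 6 a CBX7 peak and 4 a RING1B peak. The 4 immediate early genes were on both CBX6 lists, and Egr1 and Fos were on the CBX7 list as well. Etv4 and Etv5 were on the CBX6 replicate 1 list and on no other.

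Ligands of low level and Fgfr3 carried the highest scores of the group in the CBX6 replicate 2, CBX7 and RING1B lists, whereas in CBX6 replicate 1 the highest were at Dusp4, Spred1, Fgf11 and Myc (545, 531, 517 and 495). MACS scores rise with the strength of a peak, a value of 3100 recurs at the top of the scale, and scores are not on 1 scale between lists. Fgf12, one of the intracellular FGF homologous factors, had a score of 3100 in both the CBX7 and the RING1B list, with peaks 4772 and 3716 bp wide that reached upstream of its start. Fgf9, a paracrine ligand, had the same top score in both lists and the widest peaks of the group, 7693 bp in CBX7 and 7330 bp in RING1B, with 5422 bp in CBX6 replicate 2. In CBX6 replicate 1 the Fgf9 region was covered by separate peaks of 1158 and 1329 bp with scores of 96.1 and 120.4. Fgf3, another paracrine ligand, scored 374 and 966 in the CBX6 replicates, 2303 for CBX7 and 3100 for RING1B. Fgf8, which patterns the gastrulating embryo, had peaks in all 4 lists, and its CBX7 score was 2177. Fgf10, Fgf15, Fgf18 and Fgf20 were on all 4 lists too, Fgf11 was on all but the RING1B list and Fgf14 on all but that of CBX6 replicate 2. Fgf13 and Fgf2 were on the CBX6 replicate 2, CBX7 and RING1B lists without a replicate 1 peak.

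The receptors Fgfr2 and Fgfr3 had wide peaks of the same kind. Fgfr3 scored 3100 in CBX7 and RING1B with peaks of 4317 and 4040 bp, and 182 and 1396 in CBX6 replicates 1 and 2. Fgfr2 scored 370 and 576 in the CBX6 replicates, 2459 for CBX7 and 1908 for RING1B, with a CBX7 peak of 5455 bp that lay mostly past the start and was centred in an intron. Fgfr1 had weaker peaks at its starts, with top scores of 287 in CBX7 and 176 in RING1B. Fgfr4 scored 124 in CBX7.

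Among feedback genes, Dusp4 had the strongest Polycomb peaks. DUSP4 is a nuclear phosphatase of ERK and JNK. Its gene (chr8:35870351-35882948, plus strand, NCBIM37) scored 545 in CBX6 replicate 1, higher than 99.5% of that list, 594 in replicate 2, 1684 for CBX7 and 966 for RING1B. The RING1B peak of Dusp4 was 5871 bp wide and ran from -2600 to 3270 bp of the start. Dusp5, a nuclear ERK phosphatase (chr19:53603599-53616921, plus strand), had weaker peaks with scores of 123, 96.9 and 288 in the CBX6 replicates and CBX7 and none in RING1B. Dusp7, a cytoplasmic ERK phosphatase, and Dusp2, a nuclear one, were on all 4 lists. Spry1 was also on all 4, but with scores in the low range of 3 of them (112 and 62.3 in CBX6 replicates 1 and 2, 55.2 in CBX7 and 74.3 in RING1B).

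A different picture was seen at the feedback genes that were high in ESCs. Spry2, Spry4, Spred1, Spred2, Dusp1 and Dusp6 had peaks in CBX6 replicate 1 only. Spred1, a RAS inhibitor, had 1 peak of 2761 bp over its start with a score of 531, above 99.5% of that list. Dusp6, the phosphatase that restrains cytoplasmic ERK, had 1 peak of 3626 bp with a score of 290. Etv4 had a peak of 4698 bp over its start with a score of 282, and Fgf4 a peak of 2266 bp with a score of 173. Etv5 had 7 peaks in that list, all inside introns and none over a start.

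**Figure D2:**
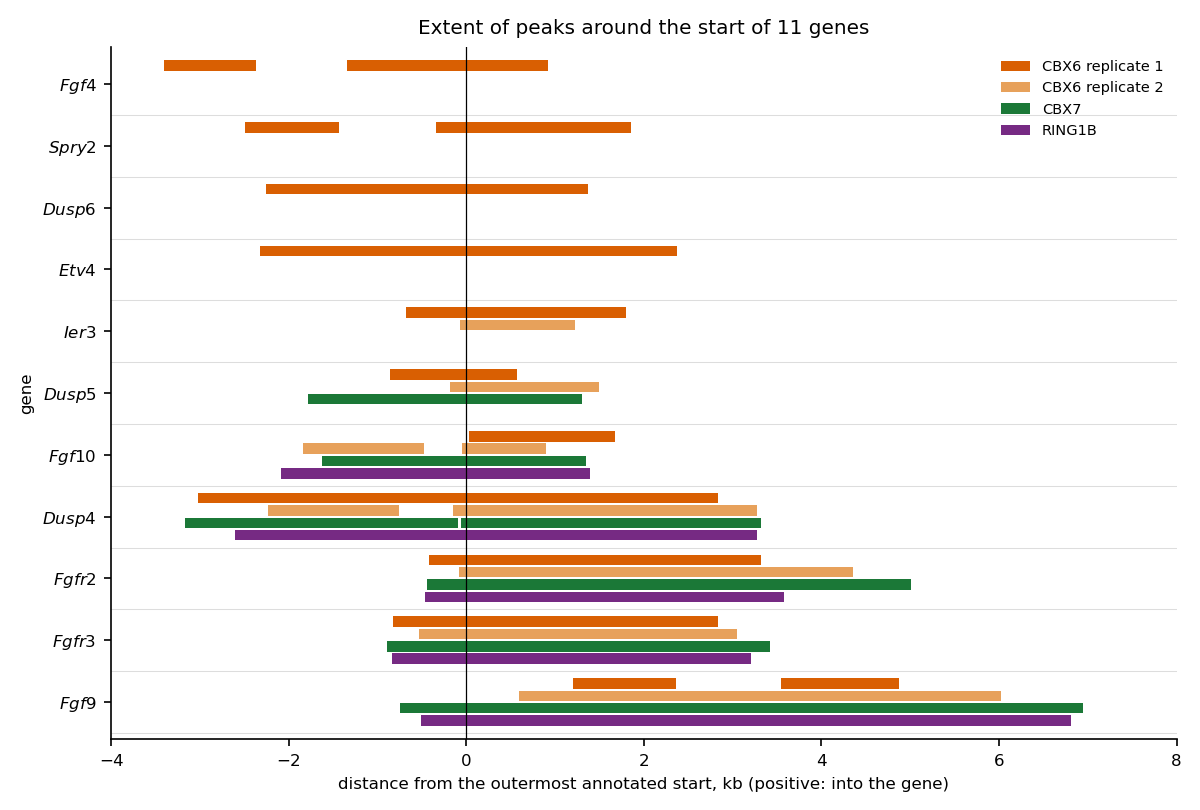
Position of peaks from the 4 lists around the outermost annotated start of 11 genes, in kb, with positive values into the gene. Fgf4, Spry2, Dusp6 and Etv4 show only CBX6 replicate 1 peaks, whereas peaks of all 4 lists lie over each other at Dusp4, Fgfr2 and Fgfr3 and the CBX7 peak of Fgf9 spans 7693 bp.

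Some peaks could belong to a neighbour. Peaks at Fgf21 also lay in the window of Fut1, the only Spred3 peak lay in that of Ggn and the Fgf17 peak, centred past the 3′ end of the gene and reaching into its last part, lay in the window of Epb4.9, and none of these covered a start of the group's gene. All Dusp2 peaks lay in the window of Astl as well, the Ier3 peaks in that of Flot1 and the strongest Fgf11 peak of each list in that of Tmem102, although most of these covered the gene's own start. Fgf1 peaks lay in the window of Arhgap26 too and were 10055 bp or more from the nearest Fgf1 start. A CBX6 replicate 1 peak over a start of Fgf20 also lay in the window of Efha2. Over the group, 31 of 71 peaks in CBX6 replicate 1 covered an annotated start, as did 25 of 38 of replicate 2, 25 of 31 for CBX7 and 22 of 24 for RING1B. The central 300 bases of the strongest peak, counted for all genes with a peak but Fgf1, Spry4 and Egr1, held a median of 18 CpG for CBX6 replicate 1 (33 genes), 17.5 for replicate 2 (24), 21 for CBX7 (23) and 21 for RING1B (20). Over the peaks counted in the same way, 21228, 4894, 4880 and 4022 of the lists, the medians were 11, 16, 18 and 23. Peaks on the chromosome of those 3 genes were left out of both counts.

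The level in control cells went with these lists, in the group as over all genes. The 12 genes with a CBX6 replicate 1 peak only had a median shCtl level of 27.4 FPKM, and 10 of them stood at 1 FPKM or more. The 17 genes on all 4 lists had a median of 0.540 FPKM, with 6 at 1 FPKM or more. Over all genes with coordinates, those with a replicate 1 peak only had a median of 11.2 FPKM. Of these 16% were under 1 FPKM, against 16.7% of the members. Genes on all 4 lists had a median of 0.194 FPKM, with 73.1% under 1 FPKM, against 64.7% of the members. Genes at 1 FPKM or more in shCtl had a CBX6 replicate 1 peak at 90.5% of the 21 members, against 79.4% of all genes at that level. They had a CBX6 replicate 2 peak at 47.6% against 11.9%, a CBX7 peak at 42.9% against 11.4% and a RING1B peak at 38.1% against 9.44%. A replicate 1 peak alone was seen at 47.6% of them against 64.0% of all genes at that level, and peaks in all 4 lists at 28.6% against 6.14%. Under 1 FPKM, the 19 members had a CBX6 replicate 1 peak at 89.5% (34.2% of all such genes), a replicate 2 peak at 78.9% (21.1%), a CBX7 peak at 78.9% (24.2%) and a RING1B peak at 68.4% (22.5%). All 4 lists were present at 57.9% of these members against 16.7%, and replicate 1 alone at 10.5% against 12.2%.

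**Figure D3:**
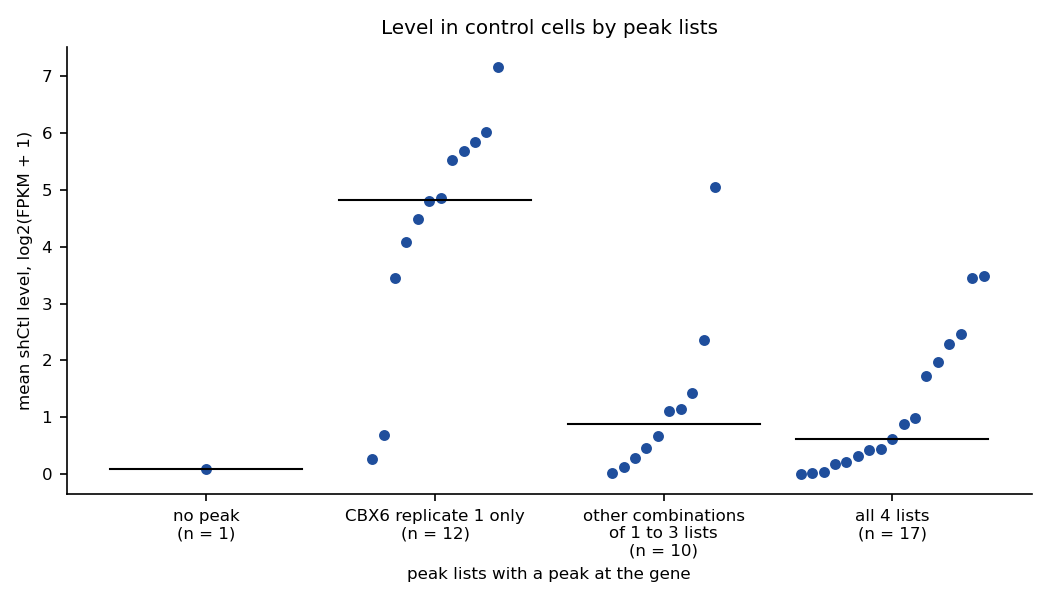
Mean level of each gene in the 2 shCtl libraries on the log2(FPKM + 1) scale, by the peak lists with a peak at the gene; each point is a gene and each line the median of its column. The 12 genes with only a CBX6 replicate 1 peak have a median of 27.4 FPKM and the 17 genes on all 4 lists a median of 0.540 FPKM, with ranges that overlap. Over all genes with coordinates the same medians are 11.2 and 0.194 FPKM.

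The second question was how these genes stood after Cbx6 knockdown. In shCtl, 21 of the 40 genes averaged 1 FPKM or more, and 22 entered limma's test, which took every gene averaging 1 FPKM or more in shCtl or in shCbx6. Fgfr2 entered through its shCbx6 level alone, so it had to be higher there to be tested at all. Of the 22, 0 passed at an adjusted p under 0.05 in either direction, and of all 11577 genes tested only 5 were called higher (0.0432%) and 6 lower (0.0518%). At an unadjusted p under 0.05, 4 were higher (Dusp4, Fgfr2, Dusp5 and Spry1) and 2 lower (Etv4 and Spred1), against 5.12% and 6.54% of all genes tested. A mean at least 1.5-fold higher, the threshold of the study, was reached by Dusp4, Fgfr2, Dusp5, Ier3 and Fgf13 (5 of 22, against 7.64% of all genes), and a mean at least 1.5-fold lower by 0 (against 6.56%). Both shCbx6 libraries lay above both shCtl libraries for 9 genes (18.9% of all genes) and below them for 4 (24.3%). The median difference over the 22 genes was 0.30 on the log2(FPKM + 1) scale, against -0.01 over all genes tested. Without shCbx6 replicate 2, the library with the high trophectoderm sum, 23 members were tested. The medians of that fit were 0.02 over these members and -0.05 over all genes tested.

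**Figure D4:**
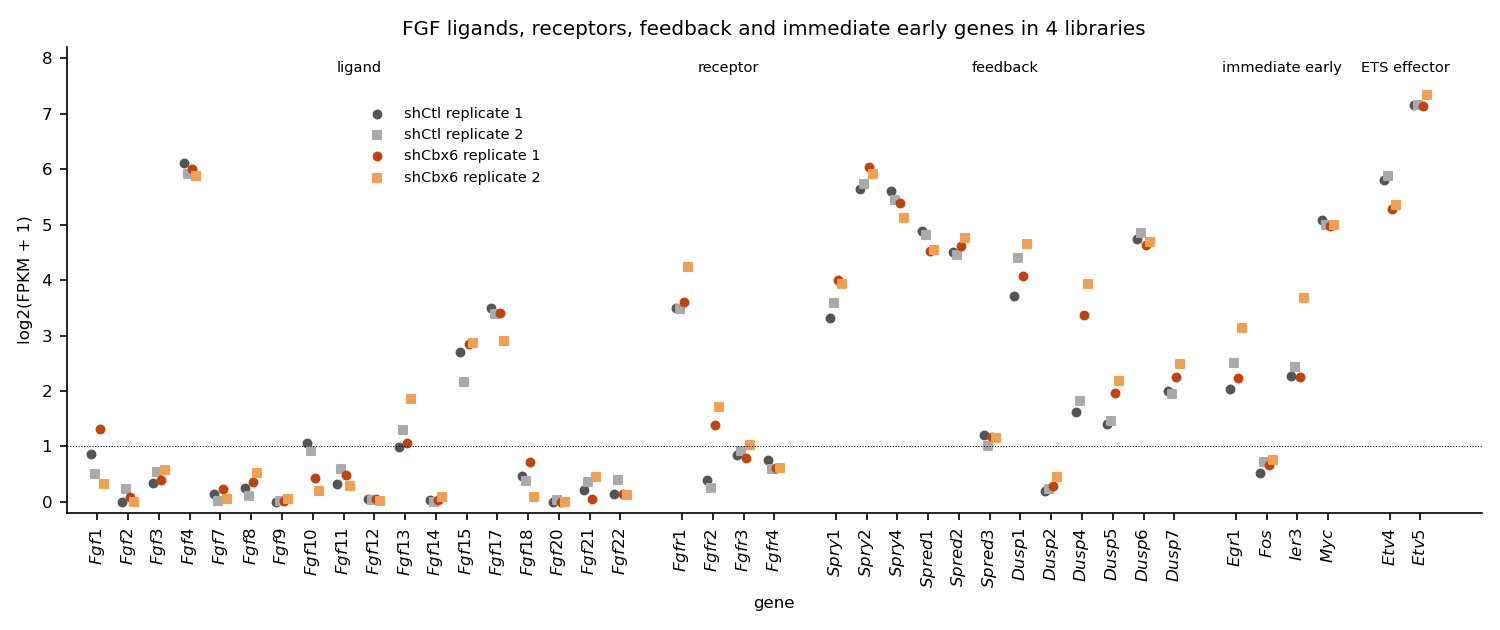
Level of all 40 genes in each of the 4 libraries on the log2(FPKM + 1) scale, grouped by class; the dotted line marks 1 FPKM. Etv5, Fgf4, Etv4, Spry2 and Spry4 are the highest, and Dusp4 and Fgfr2 show the widest separation of the shCbx6 points from the shCtl points.

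Receptors were led by Fgfr1, the main FGF receptor of ESCs. Fgfr1 stood at 10.3 and 10.1 FPKM in shCtl and at 11.2 and 17.8 FPKM in shCbx6. Both shCbx6 values were above both shCtl values, but most of the difference lay in 1 library (0.44 ± 0.23 (SE) on the log2 scale, limma adjusted p = 0.549). Fgfr2, an FGF receptor of epithelia and trophectoderm (chr7:137306026-137410322, minus strand), stood at 0.308 and 0.192 FPKM in shCtl and at 1.61 and 2.27 FPKM in shCbx6. The groups did not overlap and the mean was 7.74-fold higher in shCbx6. On the log2(FPKM + 1) scale, which understates the change of low genes, the Fgfr2 difference was 1.23 ± 0.21 (SE, limma adjusted p = 0.143). Fgfr3 was between 0.740 and 1.03 FPKM and Fgfr4 between 0.507 and 0.688 FPKM in all libraries, with overlapping groups.

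Dusp4 differed most among the feedback genes. It stood at 2.09 and 2.51 FPKM in shCtl and at 9.31 and 14.2 FPKM in shCbx6, 5.10-fold higher by the means. Both shCbx6 libraries were well above both shCtl libraries, and the difference was 1.92 ± 0.22 (SE) on the log2(FPKM + 1) scale, with a limma adjusted p of 0.0842 that misses the threshold. Without shCbx6 replicate 1, Dusp4 was 6.15-fold and Fgfr2 9.05-fold higher. Without shCbx6 replicate 2, Dusp4 was still 4.05-fold and Fgfr2 6.43-fold higher. Each of these fits leaves 1 knockdown library, and Fgfr2 entered them through its shCbx6 level alone. In the fit of all 4 libraries without a limit on level, neither passed (limma adjusted p = 0.263 for Dusp4 and 0.253 for Fgfr2). Dusp5 was at 1.65 and 1.76 FPKM in shCtl and at 2.92 and 3.55 FPKM in shCbx6, 1.90-fold higher (limma adjusted p = 0.259). Dusp7 was at 2.98 and 2.87 FPKM against 3.79 and 4.61 FPKM, also without overlap (limma adjusted p = 0.428).

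The Sprouty genes lay on both sides of the controls. SPRY proteins block receptor signaling to RAS and RAF. Spry1 was at 8.997 and 10.97 FPKM in shCtl and at 15.0 and 14.2 FPKM in shCbx6, higher in both knockdown libraries (0.51 ± 0.15 (SE) on the log2 scale, limma adjusted p = 0.307). Spry2 was at 48.9 and 51.9 FPKM against 65.1 and 59.3 FPKM, higher in both by a smaller margin (limma adjusted p = 0.499). Spry4 was at 47.8 and 42.4 FPKM against 40.8 and 33.7 FPKM, so that both knockdown libraries lay below the controls (limma adjusted p = 0.596). The SPRED genes, inhibitors of the RAS step, lay on both sides too. Spred1 was at 28.6 and 27.2 FPKM against 21.9 and 22.1 FPKM, lower in both knockdown libraries with little spread (limma adjusted p = 0.425). Spred2 was at 21.8 and 20.9 FPKM against 23.5 and 26.0 FPKM, and Spred3 was at 1.30 and 1.01 FPKM against 1.26 and 1.23 FPKM.

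Of the remaining phosphatases, Dusp6 and Dusp1 lay closer to the controls. Dusp6 was at 25.8 and 27.9 FPKM in shCtl and at 23.7 and 24.6 FPKM in shCbx6, slightly lower in both (-0.15 on the log2 scale, 95% limma interval up to 0.19, adjusted p = 0.738). Dusp1, an immediate early phosphatase, was at 12.1 and 20.0 FPKM against 15.8 and 24.1 FPKM, with overlapping groups. Dusp2, too low to be tested, was at 0.1495 and 0.1688 FPKM in shCtl and at 0.2235 and 0.3601 FPKM in shCbx6. That was 1.83-fold higher by the means and without overlap (limma adjusted p = 0.507 in a fit without a limit on level). Summed over the 12 feedback genes, the level was 202 and 209.6 FPKM in the controls, against 223 and 228 FPKM after knockdown.

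**Figure D5:**
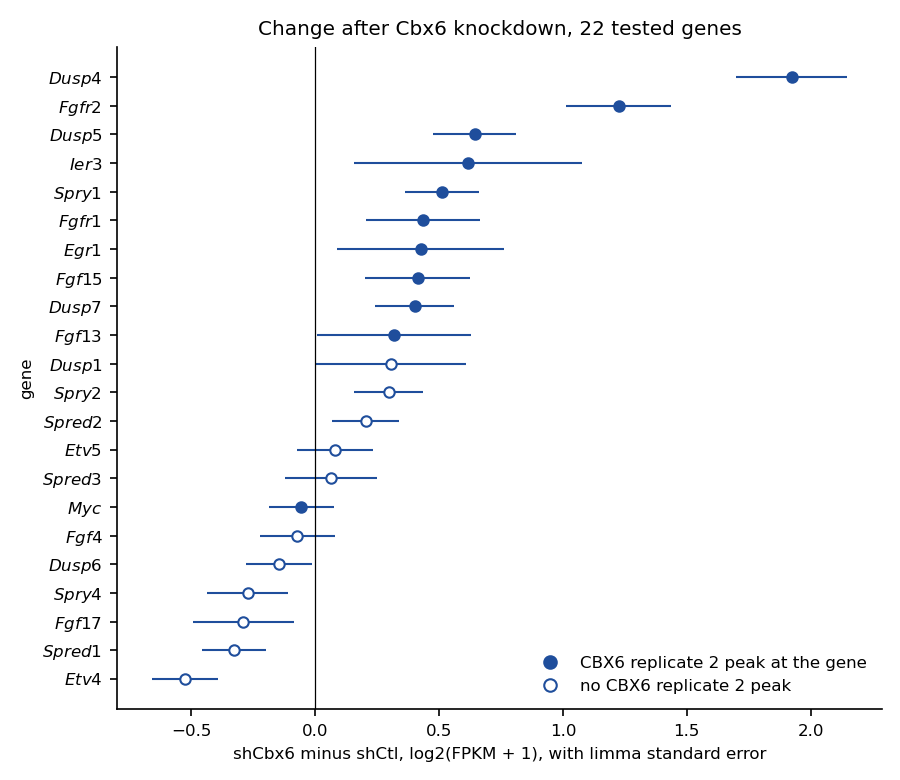
Difference between shCbx6 and shCtl on the log2(FPKM + 1) scale for the 22 tested genes, with limma's standard error (2 libraries a group); filled points have a CBX6 replicate 2 peak at the gene. Dusp4 (1.92) and Fgfr2 (1.23) lie furthest from 0, Etv4 (-0.53) lies lowest, and no gene passed the adjusted test.

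Fgf4 was the most abundant ligand. Fgf4, the autocrine FGF of ESCs, was at 68.3 and 58.9 FPKM in shCtl and at 62.7 and 57.9 FPKM in shCbx6. The groups overlapped and the difference was -0.07 ± 0.15 (SE) on the log2 scale (limma adjusted p = 0.902), with a 95% interval that reaches 0.31. Fgf17, of the Fgf8 subfamily, came next at 10.3 and 9.51 FPKM against 9.65 and 6.45 FPKM. Fgf15, an endocrine FGF, was at 5.54 and 3.50 FPKM against 6.19 and 6.25 FPKM, higher in both knockdown libraries (limma adjusted p = 0.539). Fgf13, an intracellular FGF homologous factor, was at 0.990 and 1.46 FPKM against 1.09 and 2.63 FPKM, and its 1.52-fold difference rested on shCbx6 replicate 2: without it, the ratio was 0.891.

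The other 14 ligands were under the test's limit. Fgf10, the ligand of branching epithelia (chr13:119503506-119580922, plus strand), was at 1.09 and 0.888 FPKM in shCtl and at 0.347 and 0.141 FPKM in shCbx6, 4.04-fold lower by the means and without overlap. Its shCtl mean of 0.987 FPKM was just under the limit, so it was not tested; in a fit without that limit its difference was -0.68 on the log2(FPKM + 1) scale (limma adjusted p = 0.288). Fgf1 was at 0.831 and 0.411 FPKM against 1.48 and 0.246 FPKM, with shCbx6 replicate 1 highest and replicate 2 lowest. Fgf8 was at 0.188 and 0.0743 FPKM against 0.276 and 0.434 FPKM, 2.70-fold higher by the means and without overlap (limma adjusted p = 0.424 in the fit without a limit). Fgf9 and Fgf14 were higher without overlap too, but at 0.0614 FPKM or less in every library. Fgf2, Fgf7, Fgf11, Fgf14, Fgf18, Fgf21 and Fgf22 reached at most 0.646 FPKM, in Fgf18, in any library. Fgf9 was at 0.0341 FPKM or less and Fgf20 was listed at 0 in 3 of the 4 libraries. The genes with a score of 3100 stayed low after knockdown: Fgf9, Fgf12 and Fgf3 were at 0.487 FPKM or less in both shCbx6 libraries, and Fgfr3 was at 0.740 and 1.03 FPKM.

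Of the immediate early genes, Ier3 and Egr1 differed mainly in 1 library, and Fos and Myc differed little. Ier3, an ERK-induced survival factor (chr17:35958629-35959868, plus strand), was at 3.85 and 4.38 FPKM in shCtl and at 3.78 and 11.8 FPKM in shCbx6. Egr1, a zinc finger factor downstream of ERK, was at 3.09 and 4.65 FPKM against 3.73 and 7.78 FPKM. In both genes shCbx6 replicate 1 lay within or below the controls and replicate 2 above them. Neither passed the test (limma adjusted p = 0.673 for Ier3 and 0.695 for Egr1), and without shCbx6 replicate 2 the Ier3 ratio was 0.919. That library also had the highest summed trophectoderm level, 262 FPKM, and the part of this in the result was not tested. Without shCbx6 replicate 1, where the other knockdown library stood alone, the Ier3 ratio was 2.87. Fos was at 0.432 to 0.681 FPKM in all libraries, and Myc was at 33.04 and 30.83 FPKM in shCtl and at 30.43 and 30.84 FPKM in shCbx6.

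Etv4 and Etv5 were among the 3 highest genes of the group in shCtl. Etv5 was at 140.6 and 142 FPKM in shCtl and at 139.6 and 160.1 FPKM in shCbx6, and the groups overlapped. Etv4 (chr11:101631056-101646685, minus strand) was at 55.0 and 57.8 FPKM against 37.9 and 39.9 FPKM, 1.45-fold lower by the means. Both shCbx6 libraries were below both shCtl libraries with little spread within a group, and the difference was -0.53 ± 0.13 (SE) on the log2 scale (limma adjusted p = 0.254). In the same libraries 5 of 9 pluripotency markers were lower at an unadjusted limma p under 0.05 (6.54% of all genes), and their part in this was not tested.

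Differences after knockdown were set beside the peaks. All 25 members with a CBX6 replicate 2 peak had a value in the fit without a limit on level, and 16 of them had a positive log2 difference, with a median of 0.09. Of the 15 members without such a peak, 8 were positive, with a median of 0.04. In the same fit over all genes with coordinates, 2034 of 3432 genes with a CBX6 replicate 2 peak were positive (median 0.02) and 7307 of 14468 without one (median 0.00074). With a CBX7 peak, 17 of 24 members were positive (median 0.08, against 2252 of 3690 genes and 0.02), and with a RING1B peak 15 of 21 (median 0.09, against 2025 of 3301 and 0.02). Of the 12 members with a CBX6 replicate 1 peak only, 5 were positive with a median of -0.10, against 3866 of 8210 genes and -0.01.

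The split looked wider among the 22 tested genes, whose choice bears on it. Fgfr2 entered only through its shCbx6 level and had to be positive, whereas Fgf10, on all 4 lists and 4.04-fold lower, fell just under the limit. Of the 11 tested genes with a CBX6 replicate 2 peak, 10 were positive and 5 at least 1.5-fold higher, and of the 11 without one, 5 and 0. Over all tested genes with coordinates, 53.5% of 1468 genes with such a peak were positive and 20.9% at least 1.5-fold higher, against 47.1% and 5.54% of 9885 without one. With a CBX7 peak 10 of 10 tested members were positive (56.6% of 1445 genes), with a RING1B peak 8 of 9, all but Myc (56.0% of 1214), and with a CBX6 replicate 1 peak only 4 of 10 (46.1% of 7080). Without shCbx6 replicate 2 the positive members were 7 of 11 with a CBX6 replicate 2 peak, 8 of 10 with a CBX7 peak and 6 of 9 with a RING1B peak, beside 4 of 11 without a CBX6 replicate 2 peak. The same fit had fewer positive genes throughout: 581 of 1391 with a CBX6 replicate 2 peak, 604 of 1355 with a CBX7 peak and 513 of 1132 with a RING1B peak. With that library left out, Fgf13 (-0.08), Egr1 (-0.02) and Ier3 (-0.10) turned negative among the members with a CBX6 replicate 2 peak, and Etv5 (-0.02) among those without one. No test was run on these splits. The members of these sets also differed in level: the median in shCtl was 0.597 FPKM with a CBX6 replicate 2 peak against 21.3 FPKM without one, and the part of this in the split was not tested.

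The rest of the pathway was followed with 4 further gene lists. Of 13 other ligands and co-receptors, 7 were tested, 0 passed and 3 were higher at an unadjusted p under 0.05 (5.12% of all genes). The gene with the lowest p was Fgfbp1, a secreted FGF carrier, at 2.64 and 2.40 FPKM in shCtl and at 8.36 and 12.9 FPKM in shCbx6 (limma adjusted p = 0.0977). Fgf5, a ligand of the primed epiblast named here after its values were seen, was at 0.394 and 0.351 FPKM in shCtl and at 1.86 and 2.36 FPKM in shCbx6 (limma adjusted p = 0.130), with CBX6 replicate 2, CBX7 and RING1B peaks; like Fgfr2, it reached the test through its shCbx6 level. Summed over this list, the level was 23.7 and 24.5 FPKM in the controls and 34.8 and 50.1 FPKM after knockdown. All 23 genes of the RAS-ERK cascade were tested and 0 passed. At an unadjusted p under 0.05 only Braf, a kinase upstream of MEK, was higher (5.12% of all genes) and 0 were lower (6.54%). Braf was at 6.88 and 4.86 FPKM against 8.44 and 8.36 FPKM (limma adjusted p = 0.426). Summed over the cascade, the level was 653 and 706 FPKM in the controls, against 659 and 748 FPKM after knockdown. Of 10 other feedback genes, 7 were tested and 0 passed, with Lrig3, of a family of receptor regulators, at the lowest p (7.19 and 7.27 FPKM against 5.23 and 5.11 FPKM, limma adjusted p = 0.333). Of 18 other immediate early and ETS genes, 12 were tested, 0 passed and 2 were higher at an unadjusted p under 0.05 (5.12% of all genes), of which Jun, an AP-1 subunit, reached the test through its shCbx6 level alone. The lowest p was that of Srf, the factor that binds CArG boxes, at 6.997 and 7.70 FPKM against 9.10 and 12.7 FPKM (limma adjusted p = 0.411).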

How the data were processed

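RNA-seq was available for 4 libraries and ChIP-seq peak lists for 4 of 7 ChIP samples. Per the labels and methods, the authors aligned reads to mm9 with TopHat or Bowtie, keeping uniquely mapped reads, and deposited FPKM per gene from Cufflinks on RefSeq. Peaks were called by the authors in each sample with MACS at a shift size of 75 bp, and the deposited score of each peak is the MACS score; the control of each call is not given in the sources used here. Peak lists and FPKM hold no read counts, so depth is unknown apart from relative RNA depth. CBX6 and CBX7 ChIPs used another kit than RING1B, so scores are not comparable between lists. FPKM are relative to each library's total, and a change in total RNA cannot be seen.

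Rows with dates in place of symbols (25 of 23290) were dropped. Coordinates came from GENCODE vM1 on NCBIM37 (mm9); 21149 symbols were found by name and 772 through a synonym, and 2 transcripts longer than 2.5 Mb were left out. Genes averaging 1 FPKM or more in shCtl or shCbx6 were tested with limma 3.58.1 (R 4.3.3; lmFit, eBayes with trend) on log2(FPKM + 1) without a replicate term, with Benjamini-Hochberg adjustment over all of them. With 2 libraries a group, an exact permutation test of a single gene cannot go below p = 0.333 (two-sided), so none is given. Promoter windows were the 250 bases before each RefSeq start. Python 3.11.15, numpy 2.4.6, pandas 2.3.3 and matplotlib 3.10.9 were used, and limma was tested on simulated data with known changes. All 40 genes are named; values by library are given where a group mean reached 1 FPKM or a peak or level result turns on the gene. Of the other pathway lists the gene with the lowest p is named. The genes, lists and comparisons were chosen with earlier results of these data known. Alternatives covered the pseudocount, filter, scaling, replicate block, each library left out, peak score, overlap, window and shared CBX6 peaks.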

Additional observations from a re-analysis of the deposited data

How the results depend on the processing

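The count of genes passing the adjusted limma test stayed at 0 with a pseudocount of 0.1, no filter, quantile normalization and median-of-ratios scaling. With the replicate number as a block it was 2 (Dusp4 and Fgfr2, limma adjusted p = 0.0144 and 0.0492). Fgfr2 entered through its shCbx6 level alone, and that fit called 183 genes higher and 205 lower over all genes instead of 5 and 6. The labels do not tie same-numbered libraries beyond a shared table, and with 2 pairs the correlation of their deviations (0.266) gives only a hint of pairing. Leaving out 1 library at a time, the count ranged from 0 to 3 (the 3 without shCbx6 replicate 1, where 266 genes were called higher and 131 lower over all genes), the number at least 1.5-fold higher from 4 to 8, the number at least 1.5-fold lower from 0 to 1 and the median difference from 0.017 to 0.275; a group with 1 library is assumed to vary like the other. Without a filter, all 40 genes entered: 10 were at least 1.5-fold higher, 4 lower, and the median difference was 0.0509. With quantile normalization 1 was at least 1.5-fold lower. Of 198 recomputed differences of single genes, 7 changed sign, each with 1 library left out. Over such fits Fgf4 ranged from -0.18 to 0.03 and Dusp1 from -0.04 to 0.65 (sign changed without shCtl replicate 1), Spred3 from -0.03 to 0.16 (without shCtl replicate 2), and Fgf13 from -0.08 to 0.72, Egr1 from -0.02 to 0.87, Ier3 from -0.10 to 1.33 and Etv5 from -0.02 to 0.18 (without shCbx6 replicate 2). Counting only CBX6 peaks found in both replicates gave 22 genes for replicate 1 in place of 36; other peak settings kept every count within 1.5 times. The causes were not tested. With 2 libraries a group and no read counts, small differences cannot be told from the spread between libraries.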
